A study of Mus musculus with 12 samples.

Results

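Bile acid uptake and FXR signaling in the last stretch of the small intestine, the ileum, were followed in 9 genes, which include those of the receptor that takes up vitamin B12 there. The genes were picked by name from the 14244 rows of the deposited gene table, where all 9 were found: Slc10a2, Fabp6, Slc51a, Slc51b, Nr1h4, Nr0b2, Fgf15, Cubn and Amn. The study asked how partial loss of Chd8, which encodes a chromatin remodeling protein, alters gene expression in the gut epithelium. Epithelial cells were washed off intestinal sections of C57BL/6 male littermates, 8 weeks old and with no treatment in the labels, and the poly(A) RNA of 5 wild type (WT) and 7 Chd8L+/- mice was sequenced, with 1 library for each mouse. Chd8L+/- mice carry the mutated allele in every tissue and came from mutant fathers and WT mothers. The labels name the tissue as gut and no segment, so the position along the intestine of each library is not given.

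In the ileum, enterocytes take bile acids from the lumen through a transporter in the brush border, carry them across the cell on a binding protein and pass them to the blood through a transporter of 2 subunits in the basolateral membrane. Inside the cell, bile acids bind the nuclear receptor FXR, encoded by Nr1h4, which is known to switch on the binding protein, the basolateral transporter, the corepressor SHP and the hormone FGF15, which tells the liver to make less bile acid. The brush border transporter, the binding protein and the hormone are known for high expression in the ileum and low expression further up the small intestine. Vitamin B12, bound to intrinsic factor, enters through a receptor of cubilin and amnionless that also acts mainly in the ileum.

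The promoter of Fabp6 is shown because Fabp6 is a textbook FXR target and spanned the widest range of the members. It is printed from RefSeq on GRCm38.p6, 5′ to 3′ on the minus strand on which the gene lies, at chr11:43601563-43601812, and it ends before the first transcribed base of both RefSeq and GENCODE. Capitals mark matches to the FXR element IR-1 (AGGTCANTGACCT) with at most 2 mismatches on either strand.
Fabp6: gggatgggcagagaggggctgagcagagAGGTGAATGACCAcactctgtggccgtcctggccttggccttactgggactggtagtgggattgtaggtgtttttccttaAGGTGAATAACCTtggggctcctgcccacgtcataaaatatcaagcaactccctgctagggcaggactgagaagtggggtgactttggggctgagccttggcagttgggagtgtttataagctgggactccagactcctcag
The matches lie at bases -222 to -210 and -142 to -130 from the RefSeq start, with 2 mismatches each. Of 32851 mouse promoter windows, from 250 bases before to 50 after the start, 1.14% hold such an IR-1 match. Among the 8 members with a promoter in the table, Cubn also holds an IR-1 match, with 2 mismatches. The half-site AGGTCA, on either strand, occurs in Slc51a, Slc51b and Nr1h4 and in 16.3% of all promoters. These are matches of letters only.

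The libraries held 15691662 to 20761315 reads on genes, and values are read counts divided by a size factor of the library (normalized counts). Differences are log2 fold changes of normalized count + 1, libraries labelled Chd8L+/- minus WT, tested with limma over the 12808 genes with a mean of at least 10 and adjusted by the Benjamini-Hochberg method. In all 12 libraries, 15 enterocyte markers were abundant, with summed normalized counts between 438650 and 990086 in WT and between 368132 and 888766 in Chd8L+/- libraries. The median sum was 906908 in WT and 649079 in Chd8L+/- libraries. All 15 markers had a negative log2 fold change (median -0.30), 1 of them with an unadjusted p of 0.05 or less by limma, beside 11.8% of all genes tested lower at that level. Chd8 was higher in all 7 libraries labelled Chd8L+/- than in any WT library (1297 ± 123, SD, n = 7, against 953 ± 85.5, SD, n = 5), by 0.44 on the log2 scale, with an adjusted p of 0.121 from limma. Some exons are missing from the Chd8L allele, and the values cover all exons, so a count over the whole gene does not check the labels, by which the groups are named here. WT replicate 2 lay at 41.0 on the first principal component (39.7% of the variance), among the Chd8L+/- libraries at 0.26 to 42.7, while the other 4 WT libraries lay between -67.5 and -26.2.

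None of the 9 members passed an adjusted p of 0.05 between genotypes, by limma, where 0.0234% of all genes tested did, nor did any by edgeR on the recovered reads, and 1 did by DESeq2. Only Nr1h4 had an unadjusted p of 0.05 or less, and it was higher in Chd8L+/- libraries; 24.3% of all genes tested had such a p, 12.5% higher and 11.8% lower. Of the members, 6 had a negative and 3 a positive log2 fold change, with a median of -0.13 beside 0.01 over all genes tested. Several members varied widely from library to library: by the SD of log2 values within genotypes, over the 12 libraries, Fabp6 ranked 10, Fgf15 17 and Slc10a2 29 among 12808 genes, while Nr1h4 ranked 2473 and Amn 3375.

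Slc10a2, the brush border transporter that takes up bile acids with sodium, had normalized counts of 260, 170, 1050, 659 and 533 in WT replicates 1 to 5. In the 7 Chd8L+/- libraries it lay between 8.19 and 2464, with a median of 637. Chd8L+/- replicates 1 and 5 were above every WT library and replicate 6, which rested on 9 reads, was below every WT library, so the groups overlapped on both sides. The log2 fold change was -0.04 (standard error 1.05, 95% interval -2.30 to 2.22), with an adjusted p of 0.985 from limma and a two-sided exact permutation p of 0.989. Without Chd8L+/- replicate 6 it was 0.88 (adjusted p = 0.324 from limma), and the interval with all libraries is wide enough to hold a change of that size.

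Fabp6, the ileal bile acid binding protein of the enterocyte cytoplasm, was the most abundant member per length, with a mean of 18540 normalized counts per kilobase of transcript over the 12 libraries. Its normalized counts in WT replicates 1 to 5 were 2376, 2580, 18642, 10722 and 4359. In Chd8L+/- libraries they lay between 42.8 and 22957, with a median of 8213. The order of libraries was like that of Slc10a2: WT replicates 1 and 2 were the lowest of WT, Chd8L+/- replicates 5 and 1 the highest of all, and Chd8L+/- replicate 6 lay far below the rest, with 47 reads. Across libraries the highest value of Fabp6 was 537-fold the lowest, and that of Slc10a2 301-fold. Fabp6 had a log2 fold change of -0.36 (standard error 1.24, 95% interval -3.03 to 2.31; adjusted p = 0.881 from limma; exact permutation p = 0.899). Without Chd8L+/- replicate 6 the value was 0.74 (adjusted p = 0.455 from limma). In these bulk libraries, fewer cells that express a gene and less of its RNA per cell cannot be told apart. Relative to Slc10a2, Fabp6 per kilobase was 70.9-fold to 154-fold in WT and 45.3-fold to 158-fold in Chd8L+/- libraries, a much narrower range than either gene had alone.

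**Figure D1:**
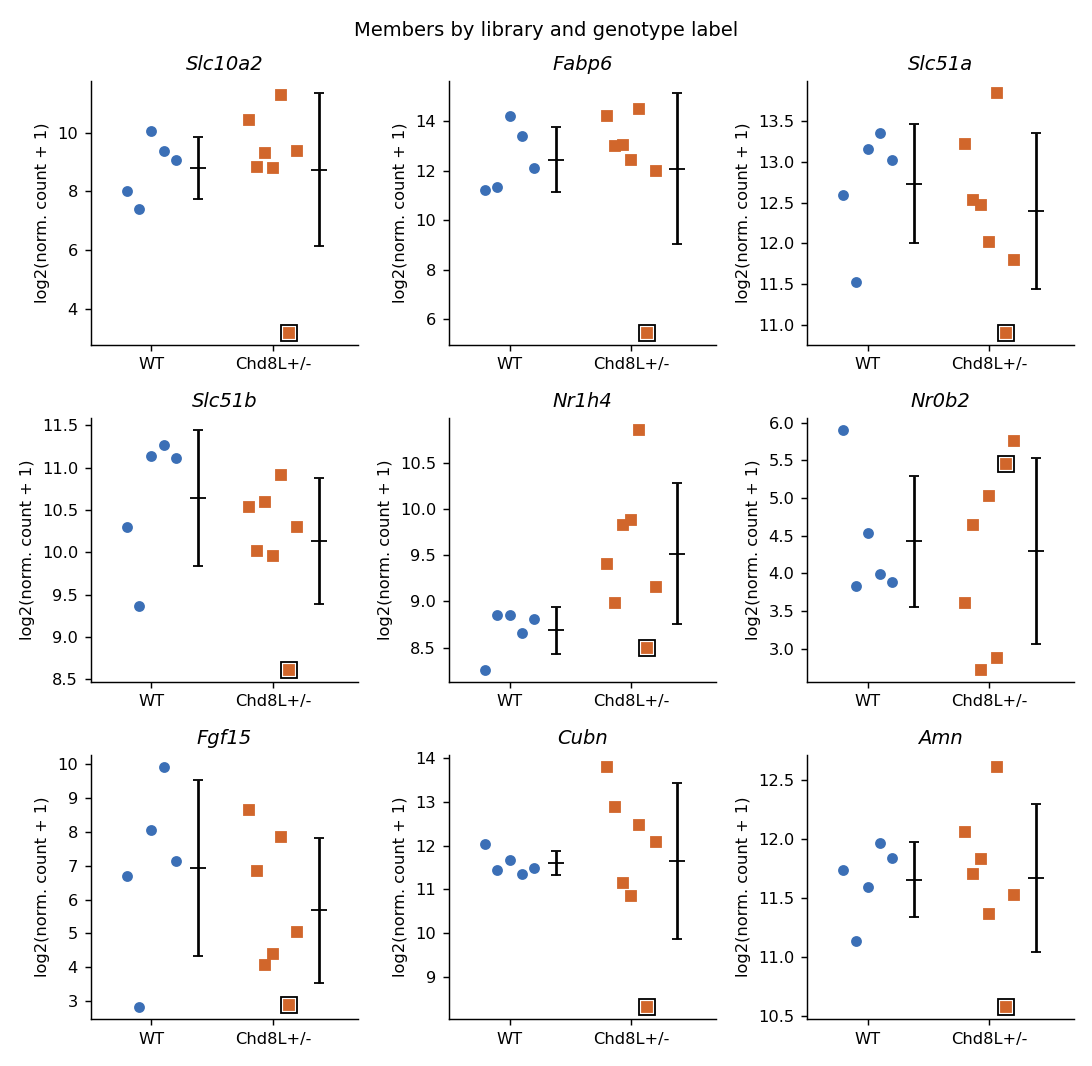
Each panel plots 1 member as log2(normalized count + 1) in the 5 WT (circles) and 7 Chd8L+/- libraries (squares); the bar beside each group is the mean with its SD, and the open box marks Chd8L+/- replicate 6. That library is the lowest of its group for every member but Nr0b2, and for Nr1h4 6 of the 7 Chd8L+/- libraries lie above the highest WT library.

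Slc51a and Slc51b encode the subunits α and β of the basolateral transporter that passes bile acids to the blood. Slc51a had normalized counts of 6210, 2926, 9167, 10502 and 8341 in WT replicates 1 to 5. In Chd8L+/- libraries it lay between 1914 and 14729 (median 5659), with replicate 5 above and replicate 6 below every WT library. Slc51b had 1257, 659, 2258, 2475 and 2207 in WT, and between 391 and 1926 (median 1259) in Chd8L+/- libraries. WT replicates 3, 4 and 5 were above every Chd8L+/- library for Slc51b, while WT replicates 1 and 2 lay within their range. Slc51b had a log2 fold change of -0.50 (standard error 0.39, 95% interval -1.34 to 0.33) and an adjusted p of 0.432 from limma (exact permutation p = 0.299). Slc51a had a log2 fold change of -0.33 (standard error 0.44, 95% interval -1.29 to 0.62) and an adjusted p of 0.664 from limma (exact permutation p = 0.527). Leaving out WT replicate 2 moved these values to -0.82 (adjusted p = 0.0971) and -0.64 (adjusted p = 0.285), and leaving out Chd8L+/- replicate 6 to -0.25 (adjusted p = 0.653) and -0.09 (adjusted p = 0.914), all from limma. Per kilobase the subunits were near each other, and the ratio of Slc51a to Slc51b lay between 1.02 and 1.34 in WT and between 0.766 and 2.07 in Chd8L+/- libraries. Pcyt1a overlaps Slc51a and Rasl12 overlaps Slc51b on the opposite strand, and the use of strand in counting is not stated, so reads of these neighbors cannot be told apart from those of the members.

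Nr1h4 encodes FXR, the receptor by which the cell reads its bile acids. Its normalized counts were 306, 460, 462, 405 and 446 in WT replicates 1 to 5. In Chd8L+/- libraries they were 674, 506, 911, 940, 1848, 361 and 569 in replicates 1 to 7. The WT libraries were close together, and 6 of 7 Chd8L+/- libraries lay above the highest of them; replicate 6 lay among them. Nr1h4 had a log2 fold change of 0.83 (standard error 0.31, 95% interval 0.16 to 1.50), an unadjusted p of 0.0189 and an adjusted p of 0.145 from limma, and a two-sided exact permutation p of 0.0366, where 0.00126 is the smallest that 5 against 7 libraries allow. It therefore failed the correction over all genes. DESeq2 on the recovered reads called it (adjusted p = 0.0447), with 6.29% of all genes called, and so did limma without WT replicate 2 and Chd8L+/- replicate 6 (0.0275, 25.2% called), a setting chosen after seeing the data.

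Stromal markers were high in several of the libraries in which Nr1h4 was high. The summed normalized count of 8 stromal genes (Col1a1, Col1a2, Col3a1, Vim, Pdgfra, Acta2, Des and Pecam1) was 142 to 527 in WT and 224 to 1932 in Chd8L+/- libraries. All 7 tested genes of that list had a positive log2 fold change (median 1.68). Of these, 4 had an unadjusted p of 0.05 or less by limma, beside 12.5% of all genes tested that were higher at that level. Col1a2, Col3a1 and Pdgfra were at 0 in WT replicate 1, and Pdgfra also in WT replicate 5. Chd8L+/- replicate 5 was the highest library for both Nr1h4 and the stromal sum, and replicate 4 came next in both (940 and 760). Other libraries did not go together in this way. WT replicate 2 had a stromal sum of 527 and an Nr1h4 count of 460, whereas Chd8L+/- replicate 3 had 474 and 911. WT replicate 4 had a stromal sum of 281 and an Nr1h4 count of 405, whereas Chd8L+/- replicate 1 had 264 and 674. With the stromal mean as a covariate, which was added after seeing the data, Nr1h4 had a log2 fold change of 0.22 (adjusted p = 0.707 from limma). In that fit 1165 of all 12808 genes tested had an unadjusted p of 0.05 or less by limma, against 3110 without the covariate. With the mean of the enterocyte markers as a covariate, Nr1h4 stood at 0.84 (adjusted p = 0.304 from limma). With no covariate and without Chd8L+/- replicate 5, the value of Nr1h4 was 0.61 (adjusted p = 0.182 from limma). The part of stromal cells in the Nr1h4 difference was not tested. Library names open with a letter whose meaning is not stated: within A (2 WT and 2 Chd8L+/- libraries) Nr1h4 differed by 1.30 on the log2 scale, within B (2 and 1) by 2.12 and within C (1 and 3) by 0.11, and D holds a Chd8L+/- library only.

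**Figure D2:**
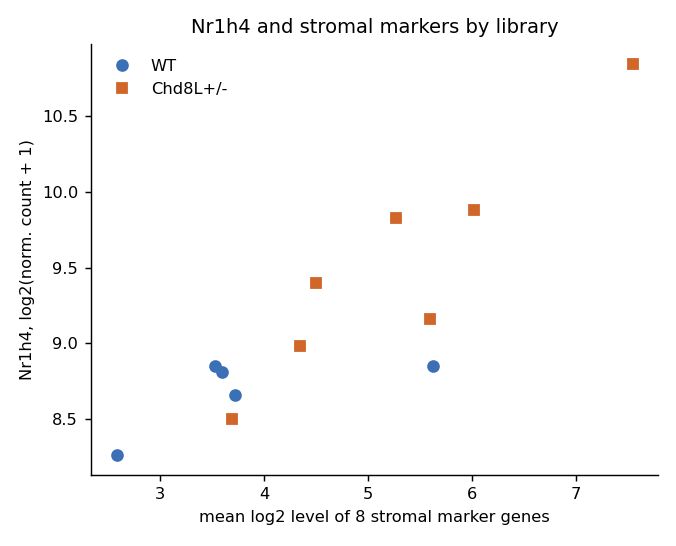
Nr1h4 as log2(normalized count + 1) is plotted against the mean log2 level of the 8 stromal genes for 5 WT (circles) and 7 Chd8L+/- libraries (squares). The highest point on both axes is Chd8L+/- replicate 5, with 1848 normalized counts of Nr1h4 and a stromal mean of 7.55, and the WT library furthest right is replicate 2, with a stromal mean of 5.63.

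Fgf15 and Nr0b2 are textbook targets of FXR. Fgf15, the hormone that ileal cells send to the liver, had normalized counts of 102, 6.09, 265, 961 and 139 in WT replicates 1 to 5. In Chd8L+/- libraries it lay between 6.37 and 400, with a median of 32.2. WT replicate 4 was the highest of all, WT replicate 2 the lowest, and all Chd8L+/- libraries fell inside the range of WT. Fgf15 differed by -1.24 on the log2 scale (standard error 1.16, 95% interval -3.74 to 1.25; adjusted p = 0.527 from limma; exact permutation p = 0.38). Without WT replicate 2 it was -2.27 (adjusted p = 0.11), without WT replicate 4 it was -0.49 (adjusted p = 0.858), and without Chd8L+/- replicate 6 it was -0.77 (adjusted p = 0.706), all from limma. In the lowest libraries, WT replicate 2 and Chd8L+/- replicate 6, Fgf15 rested on 6 and 7 reads. The antisense genes Gm26793 and Gm39119 overlap Fgf15.

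Nr0b2 encodes SHP, a corepressor that FXR induces, and it was the least abundant member, with a mean of 21.9 normalized counts per kilobase. Its normalized counts in WT replicates 1 to 5 were 58.7, 13.2, 22.2, 14.9 and 13.8. In Chd8L+/- libraries they lay between 5.6 and 53.2, with a median of 24.0, and between 6 and 66 reads stood behind a value over all 12 libraries. WT replicate 1 was above every Chd8L+/- library, and 3 Chd8L+/- libraries were below every WT library. Unlike the other members, Nr0b2 was high in Chd8L+/- replicate 6 (42.8) and low in replicate 5 (6.29). Nr0b2 had a log2 fold change of -0.13 (standard error 0.58, 95% interval -1.38 to 1.12; adjusted p = 0.909 from limma; exact permutation p = 0.832).

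Cubn encodes cubilin, the part of the receptor that binds intrinsic factor with vitamin B12. In WT replicates 1 to 5 it had normalized counts of 4225, 2762, 3279, 2601 and 2848. In Chd8L+/- libraries it lay between 317 and 14204, with a median of 4348. The WT libraries lay close together, while 4 Chd8L+/- libraries were above every WT library and 3 below. Cubn differed by 0.05 on the log2 scale (standard error 0.69, 95% interval -1.43 to 1.54; adjusted p = 0.97 from limma; exact permutation p = 0.953), and 0.61 without Chd8L+/- replicate 6 (adjusted p = 0.409 from limma). The processed transcript Gm13270 overlaps Cubn on the opposite strand.

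Amn encodes amnionless, which anchors cubilin in the membrane. Its normalized counts were 3430, 2258, 3111, 4011 and 3664 in WT, and between 1533 and 6252 (median 3350) in Chd8L+/- libraries. Amn varied least of the members, with a highest value 4.08-fold the lowest, and had a log2 fold change of 0.01 (standard error 0.27, 95% interval -0.57 to 0.60; adjusted p = 0.984 from limma; exact permutation p = 0.976). Although their proteins act as 1 receptor, Cubn per kilobase was 0.098-fold to 0.186-fold Amn in WT and 0.0312-fold to 0.503-fold in Chd8L+/- libraries. Per kilobase and over all 12 libraries, the order of mean levels was Fabp6 (18540), Slc51a (2629), Slc51b (2056), Amn (2015), Cubn (384), Nr1h4 (327), Slc10a2 (175), Fgf15 (106) and Nr0b2 (21.9). Levels of neighbors in this order overlapped between libraries, so the place of Slc51a, Slc51b and Amn, whose levels ran from 731 to 5626, from 551 to 3491 and from 901 to 3675 normalized counts per kilobase, is not fixed by these data. By group means, the order of Slc10a2 and Fgf15 turned. Slc10a2 and Fgf15 averaged 129 and 163 normalized counts per kilobase in WT and 208 and 64.8 in Chd8L+/- libraries. That turn rested on WT replicate 4, with 159 for Slc10a2 and 531 for Fgf15. In every other WT library Slc10a2 was above Fgf15.

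The libraries differed in the balance of distal and proximal small intestine markers. A position index was computed for each library as the mean log2 level of distal genes, led by Clec2h, Naaladl1 and Enpep, minus that of proximal genes, led by Apoa4, Lct and Fabp1, with no member in either list. It was -0.60, -1.13, 0.14, 0.12 and -0.07 in WT replicates 1 to 5, and 0.84, 0.28, 1.43, -0.70, 2.20, -1.80 and -1.04 in Chd8L+/- replicates 1 to 7. The highest and the lowest index were thus those of Chd8L+/- replicates 5 and 6. A low index need not mean high proximal genes. In Chd8L+/- replicate 6 the distal mean (9.52) was the lowest of all libraries, but the proximal mean (11.32) was also below every WT library (11.44 to 12.25). Its mean of the enterocyte markers (14.35) was the lowest too, and the part of enterocyte content in the index was not tested. The mean index did not differ between groups beyond the spread, at -0.31 ± 0.55 (SD) for the 5 WT and 0.17 ± 1.43 (SD) for the 7 Chd8L+/- libraries, with a two-sided exact permutation p of 0.494. Taken alone, 12 of the 14 proximal genes had a negative log2 fold change between genotypes (median -0.61), 6 of them with an unadjusted p of 0.05 or less by limma, beside 11.8% of all genes lower at that level. Of the 16 distal genes tested, 11 had a negative value (median -0.13) and 0 such a p.

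With genotype in the model, 8 of the 9 members had a positive and Nr0b2 a negative slope on the index, each with an unadjusted p of 0.05 or less by limma, where 9.67% of all genes tested had such a p, 5.99% rising and 3.68% falling. At an adjusted p of 0.05 or less, Slc51a and Amn rose, 2 of 9 members beside 0.187% of all genes. Slc51a changed by 0.68 on the log2 scale per unit of the index (standard error 0.10, adjusted p = 0.0296 from limma) and Amn by 0.41 (standard error 0.07, adjusted p = 0.0355 from limma). The steepest values were those of Fabp6 (1.70, standard error 0.37, adjusted p = 0.102), Slc10a2 (1.44, standard error 0.32, adjusted p = 0.102) and Fgf15 (1.28, adjusted p = 0.335), which did not pass the correction. Cubn (0.69, adjusted p = 0.429), Slc51b (0.53, adjusted p = 0.102), Nr1h4 (0.38, adjusted p = 0.201) and Nr0b2 (-0.76, adjusted p = 0.146) did not pass it either. The call for Slc51a and Amn rests on few libraries: 0 members were called without WT replicate 1, WT replicate 3, WT replicate 5, Chd8L+/- replicate 5 or Chd8L+/- replicate 6, 1 without WT replicate 4, Chd8L+/- replicate 1 or Chd8L+/- replicate 2 (Slc51a each time), and 4 without Chd8L+/- replicate 7. Without Chd8L+/- replicate 6, 8 members kept an unadjusted p of 0.05 or less and their direction, beside 2.79% of all genes rising and 2.09% falling, and Cubn did not (0.18, unadjusted p = 0.476 from limma). In that fit the slope of Fabp6 was 0.85 and that of Slc10a2 0.74.

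**Figure D3:**
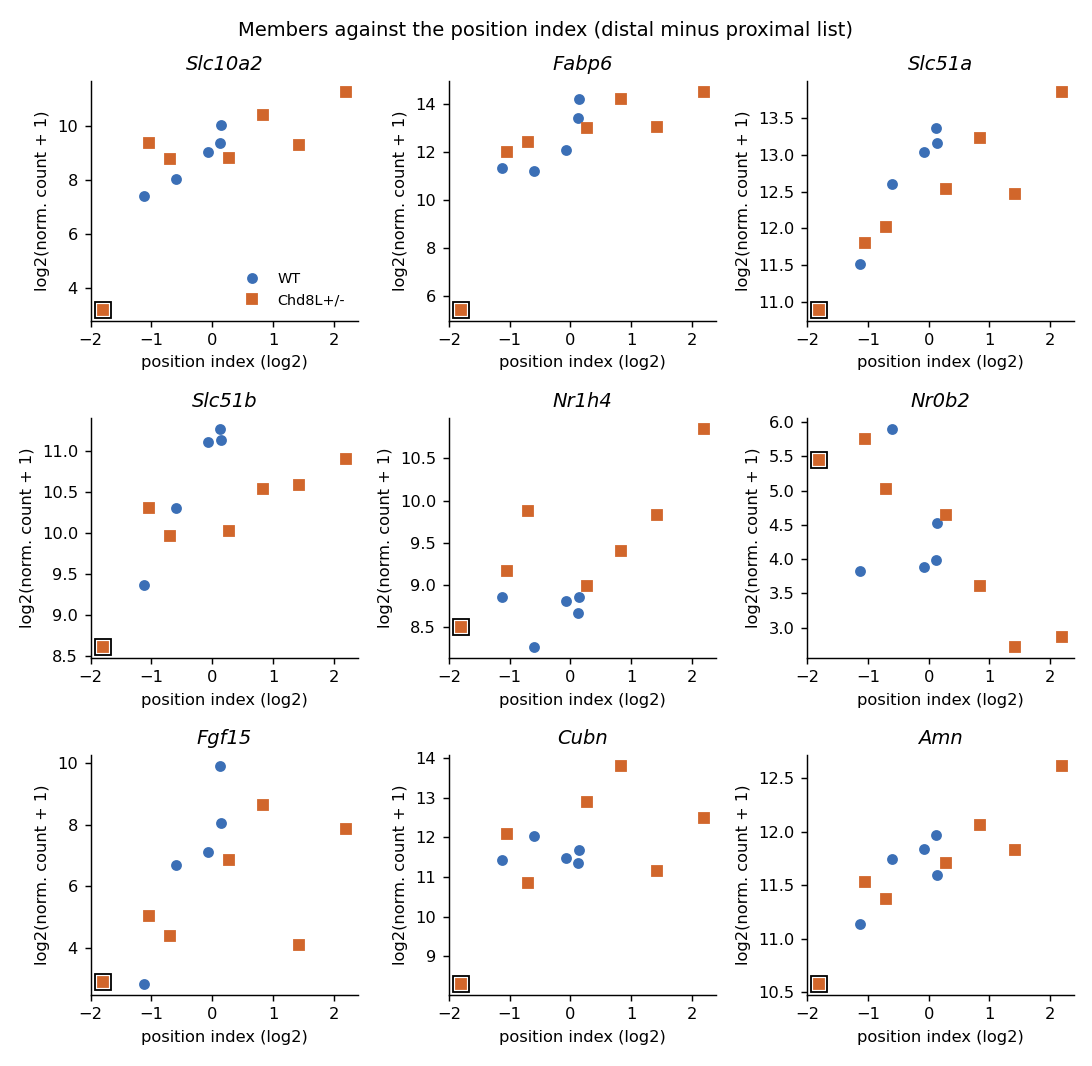
Each panel plots 1 member as log2(normalized count + 1) against the position index of the library, for 5 WT (circles) and 7 Chd8L+/- libraries (squares), with an open box around Chd8L+/- replicate 6. From left to right the points of Slc51a and Amn climb in both groups. Those of Nr0b2 descend in Chd8L+/- libraries but not in WT, where the library furthest left is the lowest. In Slc10a2, Fabp6 and Cubn the boxed library, at an index of -1.80, lies far below the others.

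With the index as a covariate, the genotype difference of Slc51a moved from -0.33 to -0.66 (unadjusted p = 0.0105, adjusted p = 0.122 from limma) and that of Slc51b from -0.50 to -0.76 (unadjusted p = 0.0118, adjusted p = 0.123 from limma). In the same fit Fabp6 stood at -1.17, Slc10a2 at -0.73 and Fgf15 at -1.85, with adjusted p of 0.366, 0.515 and 0.225 from limma. Nr1h4 stood at 0.64 (adjusted p = 0.127 from limma), and the direction changed for Cubn (-0.28), Amn (-0.19) and Nr0b2 (0.23), none of which passed a threshold. The pair Slc51a and Slc51b depended on the covariate. With the mean of the enterocyte markers in place of the index, Slc51a stood at 0.17 (adjusted p = 0.844) and Slc51b at -0.03 (adjusted p = 0.967), both from limma. Whether the libraries came from different segments was not tested. Gata4, a transcription factor known from the proximal small intestine, was measured in all 12 libraries and had a log2 fold change of -0.12 (adjusted p = 0.725 from limma). Its lowest normalized count (976) was in Chd8L+/- replicate 5, which had the highest index, and replicate 6 had 2233. Some of the other libraries did not follow the index. The highest count (2397) was in Chd8L+/- replicate 2, at an index of 0.28, and WT replicate 2, at -1.13, had 1939. With genotype in the model, Gata4 had a slope of -0.17 per unit of the index (standard error 0.08, unadjusted p = 0.0457, adjusted p = 0.503 from limma). Of all genes tested, 3.68% fell with an unadjusted p of 0.05 or less. Markers of the colon, led by Car4 and Car1, summed to 6298 to 21090 in WT and 5164 to 28260 in Chd8L+/- libraries.

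**Figure D4:**
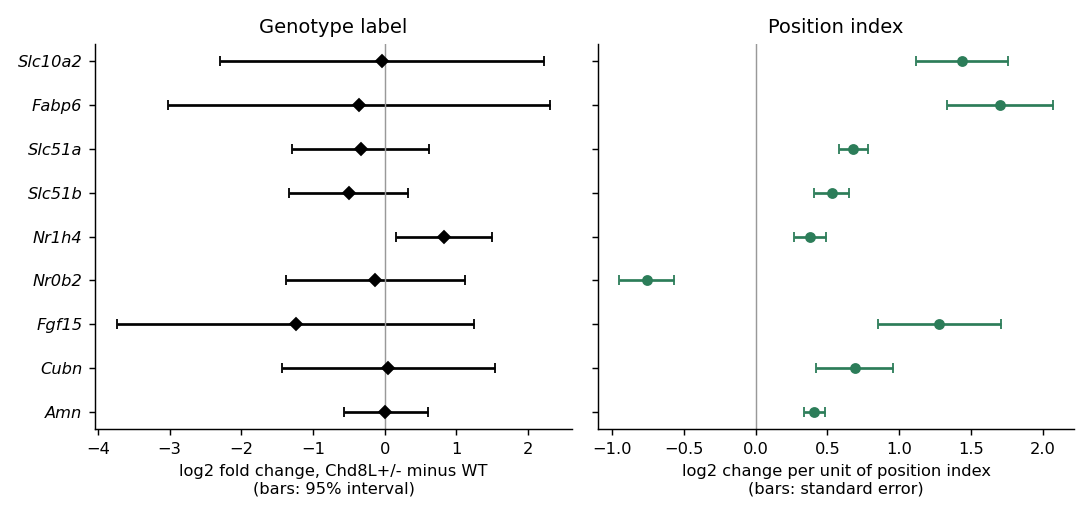
The left panel shows each member's log2 fold change, Chd8L+/- minus WT, with its 95% interval, and the right panel its log2 change per unit of the position index, with genotype in the model, with its standard error. On the left only the interval of Nr1h4 (0.16 to 1.50) leaves out 0, and on the right 8 members lie above 0 and Nr0b2 (-0.76) below.

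As a description of shared pattern, all tested genes were ranked by Pearson's r with a member over the 12 libraries, on log2 values. Slc10a2 and Fabp6 were each other's nearest gene, with r = 0.98, and 0.90 without Chd8L+/- replicate 6. After Fabp6, the genes nearest to Slc10a2 were Slc25a48 (r = 0.97), Tmigd1 (0.95), Slc26a2 (0.93), Mfhas1 (0.93) and Kdm7a (0.92), of which Tmigd1 is in the distal list. After Slc10a2, those nearest to Fabp6 were Slc26a2 (0.95), Slc25a48 (0.94), Mfhas1 (0.92), Dner (0.92) and Fyb2 (0.91). Without Chd8L+/- replicate 6, Slc25a48 and Tmigd1 kept r = 0.93 and 0.94 with Slc10a2, while Slc26a2 had 0.71 with Slc10a2 and 0.73 with Fabp6. Fgf15 had another set of near genes, Nbl1 (0.99), Nucb1 (0.99), Itgb4 (0.98), St14 (0.97) and Relb (0.97), and among members its nearest was Slc51a (0.89, rank 126 of 12803). With Nr1h4, the receptor gene, Fgf15 had r = 0.03. All points share libraries and their mix of cells.

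Of 30 other genes of bile acid handling and FXR signaling, 27 were in the table and 26 were tested. None passed an adjusted p of 0.05 by limma; 17 were lower and 9 higher in Chd8L+/- libraries, and their median was -0.06 on the log2 scale. At an unadjusted p of 0.05 or less, 1 was lower and 3 higher, beside 11.8% and 12.5% of all genes tested. Ang, an antimicrobial ribonuclease gene known as an FXR target in the gut, averaged a normalized count of 230 ± 49.5 (SD) in the 5 WT and 121 ± 29.1 (SD) in the 7 Chd8L+/- libraries, with no overlap between groups, as in 0.515% of all genes tested (log2 fold change -0.93, adjusted p = 0.121 from limma). Rnase4 shares its locus and Ang has close paralogs, so its reads are uncertain. Car12, a carbonic anhydrase that is another FXR target, differed by 1.02 on the log2 scale (adjusted p = 0.124 from limma) and Nr5a2, the receptor LRH-1, by 0.81 (adjusted p = 0.134). The most abundant genes of the list were Npc1l1, Hnf4a and Maf, with log2 fold changes of -0.06, -0.06 and -0.39 (adjusted p of 0.912, 0.879 and 0.29 from limma). Along the position index, Nos2, the inducible nitric oxide synthase, chosen after its values were seen, rose by 1.43 per unit (adjusted p = 0.0497 from limma). Without WT replicate 2, 5 genes of the list passed (Ang, Sqstm1 and Malrd1 lower, Car12 and Nr5a2 higher), where 27.6% of all genes did; Sqstm1 and Malrd1 were chosen after their values were seen. DESeq2 on the recovered reads called Ang and Car12, with 6.29% of all genes called, and edgeR called 0.

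Of 15 other genes that handle vitamin B12, 12 were in the table and tested, 6 lower and 6 higher, with a median of 0.14, and none passed the adjusted threshold by limma. At an unadjusted p of 0.05 or less, 0 were lower and 2 of the 12 higher, beside 11.8% and 12.5% of all genes tested. Mtr, methionine synthase, which uses the vitamin as a cofactor, averaged a normalized count of 41.6 ± 10.9 (SD) in the 5 WT and 83.0 ± 15.9 (SD) in the 7 Chd8L+/- libraries. The groups did not overlap, as in 0.515% of all genes tested (log2 fold change 1.0, adjusted p = 0.121 from limma). Abcc1, an export pump that also moves the vitamin out of cells, differed by 0.68 (adjusted p = 0.127 from limma). The most abundant were Tcn2, the carrier of vitamin B12 in blood (-0.34, adjusted p = 0.355), Lmbrd1 (-0.28, adjusted p = 0.305) and Mmadhc (-0.31, adjusted p = 0.337), all from limma. Without WT replicate 2, 3 of the 12 passed: Mtr and Abcc1 higher and Tcn2 lower, where 27.6% of all genes passed. DESeq2 on the recovered reads called Mtr, with 6.29% of all genes called, and edgeR called 0.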

How the data were processed

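Poly(A) RNA of gut epithelial cells was sequenced by the authors as 75-base single-end reads and mapped to mm10 with Tophat2. The authors deposited a normalized signal for each gene: the read count divided by the library's size factor, from the DESeq2 pipeline. The counting program, annotation, use of strand and gene filter are not given in the sources used here. Each value is a whole multiple of what 1 read is worth, so reads were recovered for 100% of the values (largest deviation from a whole number 0.000147, tolerance 0.01). Of 14244 rows, 21 have names turned into dates and 2 repeat a name. The table holds 0 columns of other samples.

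Genotypes were compared over all 12 libraries with limma 3.58.1 in R 4.3.3 (linear fit, moderated with a trend) of log2(value + 1), a scale that understates changes of low genes, for the 12808 genes with a mean of at least 10, with Benjamini-Hochberg adjustment and a threshold of 0.05. Single genes were also compared by a two-sided exact permutation test of log2 values over all 792 splits. The position index entered a second limma fit beside genotype. Alternatives were DESeq2 1.42.0 and edgeR 4.0.16 on recovered reads, quantile normalization, pseudocounts of 0.5 and 5, dropping the filter or asking for at least 10 in each library, the replicate number or library letter as a block, the position index or an enterocyte mean as a covariate, and each library left out. A stromal covariate and leaving out WT replicate 2 with Chd8L+/- replicate 6 were added after seeing the data. The steps were also run on simulated counts with the same dispersion for all genes. That run does not show how the steps perform with the spread between these libraries.

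All 9 members are named, with Chd8 and Gata4, the genes of the other lists with an unadjusted p of 0.05 or less and their 3 most abundant, and the 5 genes nearest to Slc10a2, Fabp6 and Fgf15. A gene that this rule names in those lists is counted but not reported here. Members and lists were chosen with earlier results of these data known. Transcript lengths (the longest per gene) and overlaps are from GENCODE M21, which may not be the annotation the authors used. Promoters of 8 of the 9 members matched by symbol in RefSeq (GRCm38.p6). P-values measure the spread between libraries of single mice.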

Additional observations from a re-analysis of the deposited data

Results flagged for a closer look

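Within the 5 WT or the 7 Chd8L+/- libraries, the highest and lowest value of each named gene was set against the rest of its group by Dixon's criterion at the 95% level. Over 48 groups tested, 5 values stood apart, where chance gives about 1 in 20 groups, or 2.4, if groups are independent. They are not, since the genes share libraries and some vary together, such as Slc10a2 and Fabp6 (r = 0.98). The 5 values are therefore not separate events. Of the 5 values, 3 were those of members in Chd8L+/- replicate 6. Slc10a2 stood at 3.20 on the scale of log2(normalized count + 1), with the other 6 libraries of the group between 8.79 and 11.27. Fabp6 stood at 5.45, with the others between 11.98 and 14.49. Slc51b stood at 8.61, with the others between 9.96 and 10.91. The same library had the lowest position index, -1.80, and a stromal sum of 224, the lowest of its group. Of all 12 libraries it also had the lowest mean log2 level of the enterocyte markers (14.35). Its means of 8 stem cell markers (10.16) and of 5 Paneth cell markers (12.79) were the highest of all. The part of these in the 3 values was not tested. The other 2 were for Mmadhc, a vitamin B12 handling gene, at 10.94 in WT replicate 5 and at 10.53 in Chd8L+/- replicate 5.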

How the results depend on the processing

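The number of genes past the adjusted threshold over the whole table, 3 by limma, was 805 by DESeq2, 5 by edgeR, 451 with the library letter as a block, 0 with the position index and 1 with the enterocyte mean as a covariate, 0 with the stromal mean, and 3234 without WT replicate 2 and Chd8L+/- replicate 6; leaving out 1 library gave 0 to 3534, the highest without WT replicate 2, and 8 without Chd8L+/- replicate 6. Members past it, 0 by limma, were 1 by DESeq2 and 1 without both those libraries (Nr1h4 each time), and 0 to 0 with each library left out. For the other bile acid genes, 0 by limma, the count was 2 with the letter block, 2 by DESeq2 and 4 without both libraries (0 to 5 leaving out each, 5 without WT replicate 2); for the other vitamin B12 genes it was 2, 1 and 3 (0 to 3). Members called along the position index, 2 by limma, were 7 by DESeq2 (where 2.07% of all genes were called), 0 with the letter block and 0 without both libraries, and 0 to 4 leaving out each.

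Directions that turned, none with a call, were those of Slc10a2 (0.03 with a pseudocount of 5, 0.05 with quantile normalization, 0.32 with the letter block, 0.72 by edgeR, 0.69 by DESeq2, 1.09 with the enterocyte mean, 0.54 without both libraries), Fabp6 (0.06 with the letter block, 0.36 by edgeR, 0.33 by DESeq2, 0.95 with the enterocyte mean, 0.47 without both libraries), Nr0b2 (0.02 by edgeR and by DESeq2, 0.23 with the position index, 0.53 with the stromal mean), Cubn (-0.02 with the letter block, -0.28 with the index, -0.26 with the stromal mean), Amn (-0.19 and -0.20 with the index and the stromal mean), Slc51a (0.17) and Fgf15 (0.34) with the enterocyte mean, Gata4 (0.22 with the stromal mean), Hnf4a (0.26 with quantile normalization, 0.14 and 0.12 with the enterocyte and stromal means) and Npc1l1 (0.24, 0.29 and 0.24 in the same settings); the cause was not tested. With each library left out, log2 fold changes ranged from -0.46 to 0.88 in Slc10a2, -0.76 to 0.74 in Fabp6, -0.37 to 0.24 in Nr0b2, -0.30 to 0.61 in Cubn, -0.15 to 0.19 in Amn, -0.19 to 0.02 in Gata4 and -0.25 to 0.04 in Npc1l1, and from -2.27 to -0.49 in Fgf15. Nr1h4 stayed positive in all 25 settings, between 0.22 and 1.16 (adjusted p between 0.0275 and 0.707).

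Replicate numbers are shared between groups, and the labels do not say that they pair the mice. Same-numbered libraries had correlations of their deviations between -0.344 and 0.189. For number 1 the nearest Chd8L+/- library was the same-numbered one, and for numbers 2 to 5 it was another. These correlations do not settle whether mice were paired, for example by litter. With the replicate block, 0 genes of the whole table, 0 members and 0 members along the index were called, and Slc10a2 (0.94), Fabp6 (0.98), Slc51a (0.08) and Hnf4a (0.07) turned. Requiring at least 10 in every library leaves out Slc10a2, Fgf15 and Nr0b2, which therefore have no value there. Depth limits Slc10a2 and Fabp6 in Chd8L+/- replicate 6 (9 and 47 reads), Fgf15 in 4 libraries (6 to 19 reads) and Nr0b2 throughout (6 to 66 reads).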
